A study of Rattus norvegicus with 4 samples.

Results

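The genes described here encode the subunits of NF-kB and the proteins that restrain it. They were chosen by name: the subunits Nfkb1, Nfkb2, Rela, Relb and Rel, and the regulators Nfkbia, Nfkbie, Nfkbiz, Tnfaip3 and Tnip1. Every probe set that the array's annotation ties to 1 of these symbols alone was taken, which gave 9 of 31042 probe sets that are not controls. They cover 8 of the 10 genes, among the 14217 genes so named on the array. Rel and Nfkbie had no such probe set and were not analysed here. The arrays measured RNA of AA4+ cells that the labels call mast cells. The source was the pancreatic lymph node of day 65 BioBreeding females. The DRlyp/lyp rats, homozygous for lyp, are the diabetes-prone group and the DR+/+ rats the resistant one; no treatment is given for either. Each group is a pool made from 8 females, and 2 independent amplifications starting from roughly 50 ng of RNA put each pool on 2 arrays. With 1 pool per group, every test below compares these pools, and its error is that of amplification and hybridisation. No spread between animals is in it. An exact permutation test of 2 arrays against 2 cannot go below p = 0.333, so the tests rest on limma's fit across 16068 probe sets.

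NF-kB proteins bind DNA as dimers. Rela, Relb and Rel carry an activation domain, whereas Nfkb1 and Nfkb2 encode long precursors that are processed to the DNA-binding subunits p50 and p52. In resting cells inhibitor proteins of the I-kappa-B type, among them the product of Nfkbia, hold the dimers in the cytoplasm. Receptors for antigen, IgE, tumour necrosis factor, interleukin 1 and microbial products activate the IKK kinase, which marks the inhibitor for destruction and frees the dimer. Several of the genes then switched on encode the brakes themselves, so the transcripts of Nfkbia, Tnfaip3 and Tnip1 are textbook NF-kB targets as well as regulators. In mast cells the pathway is known for driving cytokine and chemokine transcription after IgE receptor crosslinking.

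RefSeq promoter windows of the GRCr8 assembly, 250 bases before to 50 after a start, were matched by symbol for 9 of the 10 genes (all but Relb). Both strands were searched for the kappa-B consensus, the sequence NF-kB dimers bind. It matched in 8 of these 9 windows, against 7.51% of 33469 windows of the same length. Rela was the exception, and overlapping matches were counted as 1 stretch. The match found in Nfkbiz and Nfkb1 was the same as that of Nfkbia read on the other strand, GGGAATTTCC, which occurs in 0.0747% of all windows, either strand counted. Nfkb2 and Tnfaip3 shared GGGACTTTCC (0.111% of windows). These sites are printed 5′ to 3′ along the gene's strand, with the 10 matching bases in capitals, for the genes measured on the arrays. Of the 3 stretches of Tnfaip3, the 2 with bases shared with another member are shown; the third, at -170 to -161, is not. A match describes the letters only, and binding was not measured.
Nfkb1 (chr2:226805440-226805469, minus strand): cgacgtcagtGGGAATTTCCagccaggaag
Nfkb2 (chr1:255108344-255108373, plus strand): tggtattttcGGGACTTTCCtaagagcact
Nfkbia (chr6:78597084-78597113, minus strand): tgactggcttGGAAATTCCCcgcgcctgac
Nfkbiz (chr11:58251698-58251727, plus strand): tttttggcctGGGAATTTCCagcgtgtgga
Tnfaip3 (chr1:15544027-15544056, minus strand): tcacgtgactGGAAAGTCCCtcggaaatcc
Tnfaip3 (chr1:15544015-15544044, minus strand): aaagtccctcGGAAATCCCCctgtggcgaa
Tnip1 (chr10:39585027-39585056, minus strand): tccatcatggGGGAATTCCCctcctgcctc

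The 2 genes with the largest differences are shown with all 250 bases before the start, because their signals differed in opposite directions. The match of Nfkbiz spans positions -13 to -4 from the start, and the stretch of Tnip1, where 3 overlapping matches lie, spans -86 to -75. Capitals mark every base of a match.
Nfkbiz (chr11:58251471-58251720, plus strand): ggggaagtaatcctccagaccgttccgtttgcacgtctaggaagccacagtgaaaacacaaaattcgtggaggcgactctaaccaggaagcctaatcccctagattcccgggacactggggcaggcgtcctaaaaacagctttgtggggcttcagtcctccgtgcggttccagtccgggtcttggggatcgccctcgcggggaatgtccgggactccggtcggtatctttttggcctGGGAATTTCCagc
Tnip1 (chr10:39584962-39585211, minus strand): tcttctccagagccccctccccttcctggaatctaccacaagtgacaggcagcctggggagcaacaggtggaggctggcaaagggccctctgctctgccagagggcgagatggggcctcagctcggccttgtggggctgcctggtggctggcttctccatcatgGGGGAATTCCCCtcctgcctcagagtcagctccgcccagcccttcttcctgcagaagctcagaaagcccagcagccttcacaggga

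In the DRlyp/lyp pool the signal of Nfkbiz was 2.77-fold lower than in the DR+/+ pool and that of Tnip1 2.49-fold higher, Nfkb2, Tnfaip3 and Nfkbia were lower by 1.2-fold to 1.37-fold, and Nfkb1, Rela and Relb did not pass the threshold. Of the 8 probe sets bright enough to be tested, 1 was higher and 4 were lower at a Benjamini-Hochberg adjusted p under 0.05 (limma). Among all tested probe sets 39.2% passed, 19.3% higher and 19.9% lower, and the members' shares are to be read against these. Higher sets made up 49.3% of all calls, or 36.1% after median centring, and no member's call changed. The arrays of the pools did not overlap for 5 of the 8, against 70.0% of all tested sets. The median log2 difference, DRlyp/lyp minus DR+/+, was -0.17 over the 8 and -0.001 over all tested sets. Differences are on the log2 scale of signal floored at 6.8, and probe sets had to exceed 28.3 on at least 2 arrays. In RNA from a mixture of cells, fewer cells of a type cannot be told apart from less RNA per cell.

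**Figure D1:**
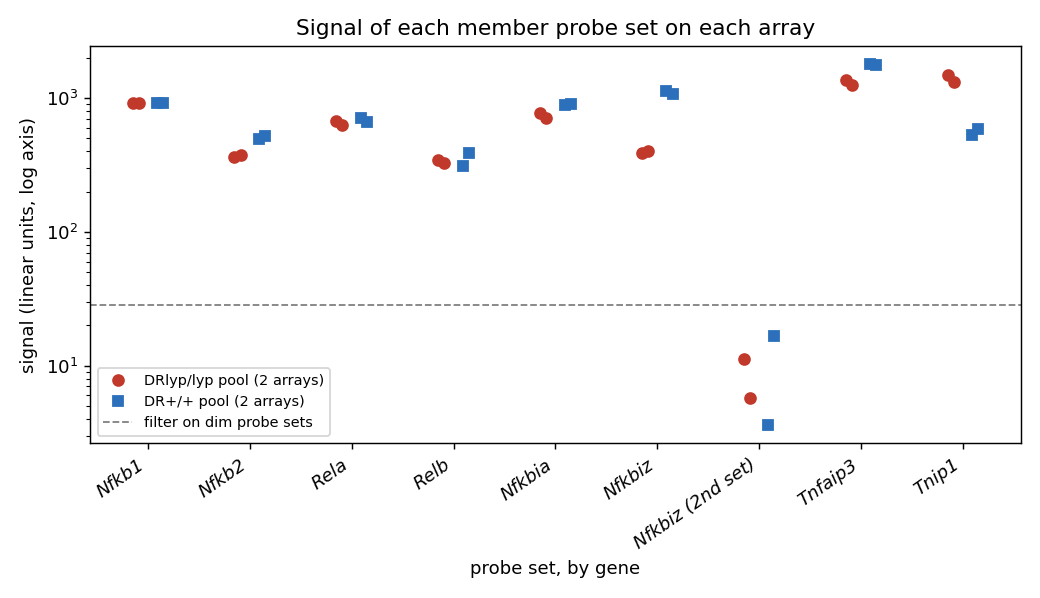
Signal on a log axis of each of the 9 probe sets on each array, with circles for the 2 arrays of the DRlyp/lyp pool and squares for the 2 of the DR+/+ pool. The pools separate for Nfkbiz and Tnip1 in opposite directions, coincide for Nfkb1, and the second Nfkbiz set lies under the dashed filter of 28.3 on every array.

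Among the subunits, neither gene of the canonical pair passed the threshold. Nfkb1, which encodes p105 and its product p50, read 926.7 and 919.2 on the DRlyp/lyp arrays and 925.4 and 916.1 on the DR+/+ arrays. The pools overlapped, and the spread within each pool was wider than the gap between their means. The log2 difference was 0.003 (SE 0.083; 95% confidence interval -0.18 to 0.19). Rela, the p65 subunit with the main activation domain, read 675.2 and 635.7 against 713.3 and 666.0. The pools overlapped here too, with a log2 difference of -0.07 (95% interval -0.28 to 0.14; adjusted p = 0.584).

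Of the alternative branch, Nfkb2 passed the threshold and Relb did not; the difference between them was not tested. Relb, the partner of p52 in that branch, read 342.8 and 328.8 against 311.1 and 386.8. The DR+/+ arrays enclosed both DRlyp/lyp arrays, and the log2 difference was -0.05 (95% interval -0.35 to 0.25; adjusted p = 0.816). Nfkb2, which encodes p100 and its product p52, read 366.6 and 379.0 in the DRlyp/lyp pool and 493.0 and 526.2 in the DR+/+ pool. Both DRlyp/lyp arrays were lower than both DR+/+ arrays, by 1.37-fold (log2 difference -0.45, SE 0.11, adjusted p = 0.00729). Dropping DRlyp/lyp replicate 1 (-0.43, adjusted p = 0.0834) or replicate 2 (-0.47, adjusted p = 0.0559) ended that call, and it was lost with no filter (adjusted p = 0.0563) and with no intensity trend (adjusted p = 0.0572). An interval that includes 0 does not show that the other 3 subunits were the same in both pools; it bounds the difference of Nfkb1 more tightly than that of Relb.

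Of the regulators, Nfkbiz differed most. Its product, I-kappa-B-zeta, is a nuclear protein that binds p50 and is known both to restrain NF-kB and to be needed for induction of some late targets such as Il6, so the word inhibitor covers only part of its role. Its bright probe set read 389.5 and 405.1 on the DRlyp/lyp arrays and 1133.9 and 1070.8 on the DR+/+ arrays. The pools lay far apart relative to the spread within each, a 2.77-fold lower signal in the DRlyp/lyp pool (95% interval 2.4 to 3.21; log2 difference -1.47, SE 0.10, adjusted p = 5.92e-07). Only 1.92% of tested probe sets were lower by as much. The call held under each of the 12 alternative settings, with differences from -1.58 to -1.37. A second Nfkbiz probe set read 11.2 and 5.7 against 3.6 and 16.6, below the filter on every array, so it was not tested and says nothing on the direction.

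Tnip1 was the 1 member called higher in the DRlyp/lyp pool. Its product, ABIN-1, binds ubiquitin chains and the product of Tnfaip3 and limits signalling to NF-kB. The DRlyp/lyp arrays read 1483.9 and 1310.9 and the DR+/+ arrays 533.5 and 585.9. Both DRlyp/lyp arrays exceeded both DR+/+ arrays, by 2.49-fold (95% interval 2.16 to 2.88; log2 difference 1.32, SE 0.10, adjusted p = 1.4e-06). Of all tested probe sets, 3.5% were higher by as much. This call too held under all 12 alternatives, with differences from 1.21 to 1.41.

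Tnfaip3 and Nfkbia, the best known feedback genes, were lower by less. Tnfaip3 encodes A20, an enzyme that edits ubiquitin on signalling proteins and so ends the response. It read 1368.3 and 1248.9 against 1802.3 and 1779.6, with no overlap and a 1.37-fold lower signal in the DRlyp/lyp pool (log2 difference -0.45, SE 0.08, adjusted p = 0.000567). The call was lost with no filter (adjusted p = 0.0715) and with no intensity trend (adjusted p = 0.0595). Nfkbia encodes I-kappa-B-alpha, which binds the dimers and carries them out of the nucleus. It read 778.4 and 716.8 against 886.8 and 908.9, a 1.2-fold lower signal in the DRlyp/lyp pool (log2 difference -0.27, SE 0.09, adjusted p = 0.0351). The groups did not overlap, but the call was lost when any array was left out. The difference was -0.33 without DRlyp/lyp replicate 1 (adjusted p = 0.0921) and -0.21 without DRlyp/lyp replicate 2 (adjusted p = 0.256). It was -0.28 without DR+/+ replicate 1 (adjusted p = 0.0583) and -0.25 without DR+/+ replicate 2 (adjusted p = 0.0861). It was also lost with no filter (adjusted p = 0.129) and with no intensity trend (adjusted p = 0.167).

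**Figure D2:**
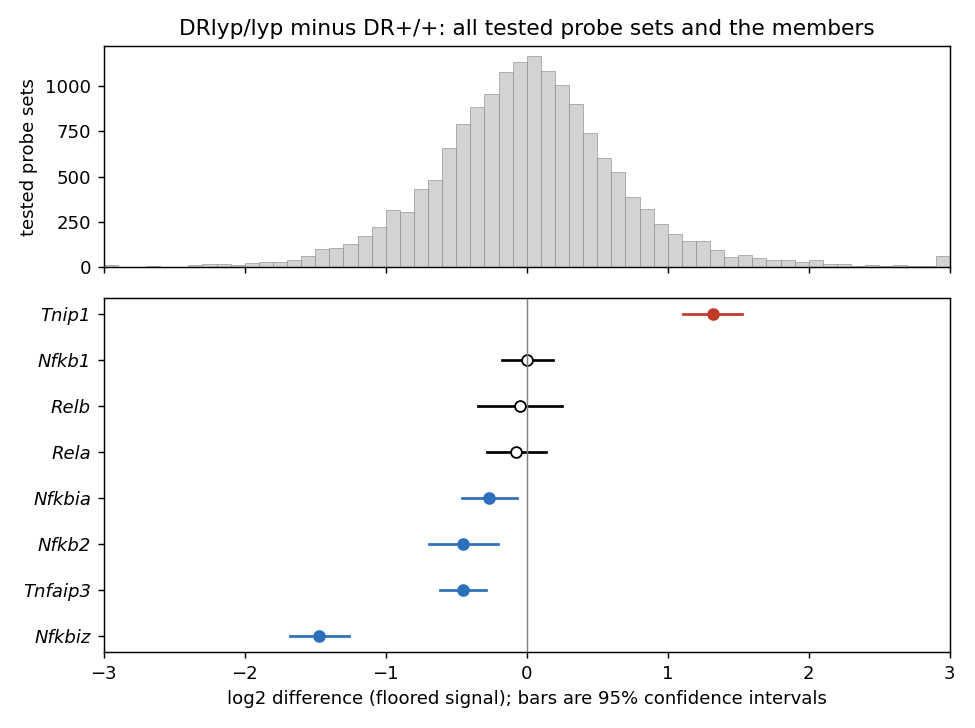
Upper panel, number of the 16068 tested probe sets by log2 difference, DRlyp/lyp minus DR+/+ (the end bars hold all values beyond the axis). Lower panel, the 8 tested members with 95% confidence intervals on the same axis, coloured where they passed the threshold: Nfkbiz at -1.47 and Tnip1 at 1.32 lie in the tails of the upper panel, and the 3 open points, Nfkb1, Relb and Rela, lie at its centre.

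Set beside the promoter matches, the values were as follows. Nfkb1, Nfkbia and Nfkbiz hold the same matching bases in their windows, on 1 strand or the other, and their log2 differences were 0.003, -0.27 and -1.47. Nfkb2 and Tnfaip3, which share the other match, differed by -0.45 each. Tnip1, whose matching bases are shared by none of the other members, differed by 1.32. The lower Tnfaip3 also holds a match shared by none of them, at -170 to -161. Rela, with no match in its window, differed by -0.07. These values are a description, with no test.

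**Figure D3:**
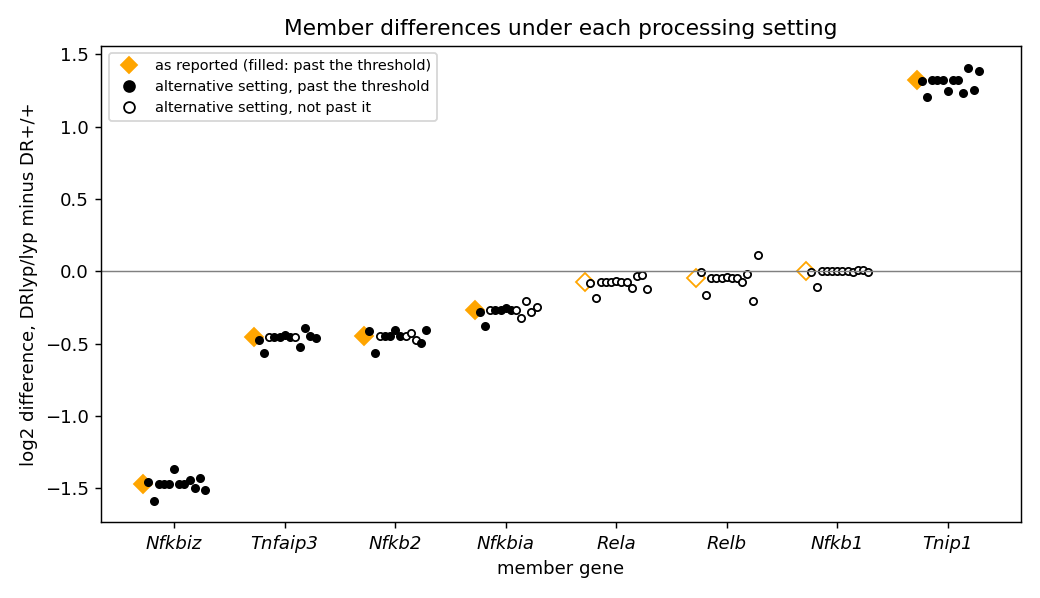
Log2 difference, DRlyp/lyp minus DR+/+, of each tested member as reported (diamonds) and under each of the 12 alternative settings (circles), filled where adjusted p was under 0.05. Nfkbiz stays filled between -1.58 and -1.37 and Tnip1 between 1.21 and 1.41, whereas Nfkbia falls to open circles in 6 of 12 settings; Nfkb1 and Relb change sign in 4 and 1 of them, never past the threshold.

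The rest of the pathway was lower in the DRlyp/lyp pool more often than higher by count. The lists held 93 other genes, of which 79 had a probe set and 71 a tested one; 35 were lower (49.3%) and 6 higher (8.45%). Over all 9349 genes with a tested probe set 21.1% were lower and 20.9% higher. The median log2 difference was -0.34 over the pathway genes and 0.001 over all genes. The lists were drawn up with earlier results of these data known, so the counts are a description and not independent evidence. Without DRlyp/lyp replicate 1 the numbers were 27 lower and 1 higher, and without DRlyp/lyp replicate 2 they were 25 lower and 3 higher. With each array centred on its median, 36 were lower and 2 higher, and with no filter 13 and 0. The shares over all genes given above belong to the main setting, and fewer probe sets passed over all under these others. Over all tested probe sets, median centring gave 3939 lower and 2223 higher, and no filter gave 827 lower and 844 higher.

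Ligands that start the signal went both ways. Of 5 tested, 2 were lower, 1 was higher and 2 did not pass. Il1a, an interleukin 1 released from damaged cells, read 53.6 and 39.5 against 111.7 and 129.7 (log2 difference -1.39, adjusted p = 0.00122). Ltb, the membrane anchor of lymphotoxin, read 2034.1 and 2104.1 against 2604.5 and 2597.0 (-0.33, adjusted p = 0.00128). Il1b, the secreted interleukin 1, was higher at 999.0 and 930.3 against 763.5 and 709.6 (0.39, adjusted p = 0.00523). The Il1b call was lost without DRlyp/lyp replicate 1 (0.34, adjusted p = 0.0928) and with median centring (0.28, adjusted p = 0.0591). Tnf, tumour necrosis factor, read 173.8 and 198.8 against 152.8 and 119.1 and did not pass (0.46, adjusted p = 0.0682).

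Of 9 receptors tested, 3 were lower and 0 higher (limma). They were Tlr7, a sensor of single-stranded RNA (-0.71, adjusted p = 0.000358), Cd40, which opens the alternative branch (-0.59, adjusted p = 0.00265), and the endotoxin receptor Tlr4 (-0.58, adjusted p = 0.0295). The Cd40 call was lost without DRlyp/lyp replicate 1 (-0.43, adjusted p = 0.0607). The Tlr4 call ended on dropping DRlyp/lyp replicate 1 (-0.60, adjusted p = 0.127) or replicate 2 (-0.55, adjusted p = 0.152), and without DR+/+ replicate 2 (-0.51, adjusted p = 0.0893). Of the receptors with a higher signal, Tnfrsf1a, for tumour necrosis factor, had an unadjusted p under 0.05 in limma's fit (0.34, adjusted p = 0.0662). Il1r1, an interleukin 1 receptor, was lower with an unadjusted p under 0.05 in that fit and did not pass either (-0.335, adjusted p = 0.0527).

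Adaptors and kinases that relay the signal were mostly lower where they were called. Of 16 adaptors 8 were lower and 1 higher. Irak3, a kinase-like protein that restrains signalling from Toll-like receptors, read 294.2 and 283.1 against 822.3 and 803.5 (2.82-fold lower, log2 difference -1.49, adjusted p = 1.11e-06), close in size to Nfkbiz. Traf5 was lower by a log2 difference of -1.01 (adjusted p = 1.75e-05) and Irak2 of -0.94 (adjusted p = 0.00131). Traf3, a brake on the alternative branch, was the higher one (0.45, adjusted p = 0.00276). Leaving out DRlyp/lyp replicate 1 ended that call (0.41). A second Traf3 set, too dim to be tested, read lower, at 9.0 and 15.6 against 32.5 and 26.2. Of 8 kinases 4 were lower and 1 higher. Ikbkb, a catalytic subunit of IKK (-0.62, adjusted p = 0.0063), the related kinase Tbk1 (-0.59, adjusted p = 0.000121) and Map3k7, which activates IKK (-0.57, adjusted p = 0.000666), were lower. Tab2, which links Map3k7 to ubiquitin chains, was higher (0.38, adjusted p = 0.00572). The Ikbkb call was lost without DRlyp/lyp replicate 1 (-0.56, adjusted p = 0.0818). The Tab2 call ended on dropping DRlyp/lyp replicate 1 (0.40, adjusted p = 0.055) or replicate 2 (0.36, adjusted p = 0.0735), and with median centring (0.27, adjusted p = 0.0726).

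Of 12 other inhibitors and regulators tested, 4 were lower and 1 was higher. Tnip2, a relative of Tnip1, read 365.7 and 384.1 against 592.7 and 628.9. That was a 1.63-fold lower signal (log2 difference -0.70, adjusted p = 0.00035), opposite to Tnip1. Tnip3, also in the list, had no probe set. Cyld, which removes ubiquitin chains from signalling proteins, differed by -0.81 (adjusted p = 0.00677) and Nfkbib, a further cytoplasmic inhibitor, by -0.72 (adjusted p = 0.00411). A dimmer tested set of Cyld differed by 0.06. N4bp1 was higher (0.65, adjusted p = 0.00559), but a dimmer probe set of the same gene was lower (-0.90, adjusted p = 0.0126), so its direction is not settled. Left out singly, DRlyp/lyp replicate 2 ended the calls of Cyld (-0.57, adjusted p = 0.103), Nfkbib (-0.66, adjusted p = 0.0568) and N4bp1 (0.63, adjusted p = 0.0737). Without DRlyp/lyp replicate 1 the N4bp1 call was lost (0.68, adjusted p = 0.0593), and without DR+/+ replicate 1 that of Cyld (-0.69, adjusted p = 0.0551).

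Genes known as NF-kB targets held the largest differences of the pathway. Of 21 tested, 14 were lower (66.7%) and 2 higher, with a median log2 difference of -0.76. The neutrophil chemokine Cxcl2 read 20.4 and 30.8 against 272.3 and 215.5 (9.66-fold lower, adjusted p = 3.76e-06). DRlyp/lyp replicate 1 lay below the filter of 28.3, so the size depends on how low signal is treated: with an offset of 50 the log2 difference was -1.96 in place of -3.27. Its relative Cxcl1 was dim on both DRlyp/lyp arrays, at 22.2 and 2.6 against 109.5 and 83.4, and was at least 3.38-fold lower with the dim arrays set to 28.3. Ccl3, a chemokine for monocytes and lymphocytes, read 119.3 and 128.2 against 378.3 and 422.4 (3.23-fold lower, adjusted p = 6.24e-06). Ccl5, a T cell chemokine, was higher at 4155.2 and 3949.4 against 3330.6 and 3188.3 (0.31, adjusted p = 0.000992), and so was Cd83, a marker of activated antigen-presenting cells (0.18, adjusted p = 0.0141). Both of these calls were lost with median centring (adjusted p = 0.0603 and 0.542) and with no intensity trend (adjusted p = 0.116 and 0.284), and that of Cd83 with quantile normalization (0.08, adjusted p = 0.221). The Cd83 call also ended on dropping DRlyp/lyp replicate 1 (0.18, adjusted p = 0.0894) or replicate 2 (0.18, adjusted p = 0.0785), and without DR+/+ replicate 2 (0.16, adjusted p = 0.0704). Il6 was singled out after its values were seen, because its induction is known to need I-kappa-B-zeta. It read 45.2 and 41.3 against 82.7 and 100.1 (log2 difference -1.07, adjusted p = 0.00694). Its call was not followed through the alternatives, and a link to Nfkbiz was not tested. Among the other lower targets Vcam1 differed by more (-1.46, adjusted p = 4.05e-08). The 4 untested targets, Ccl20, Csf2, Il12b and Ptgs2, were too dim. Of 18 target promoters matched, 8 (44.4%) held the kappa-B consensus, among them those of the lower Cxcl2, Cxcl1 and Il6 and of the higher Cd83. In the other lists the share was 14.3% to 30.0%.

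**Figure D4:**
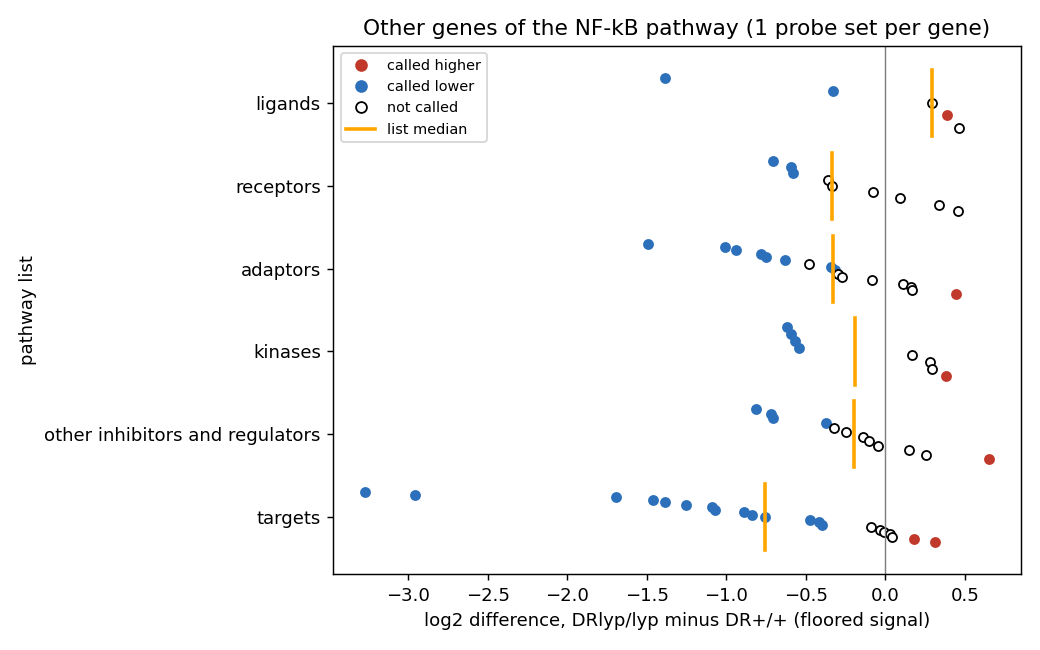
Log2 difference, DRlyp/lyp minus DR+/+, of the 71 tested pathway genes by list, filled where adjusted p was under 0.05, with the list median as a bar. The targets reach furthest to the left, with a median of -0.76, and the ligand list is the one with a median above 0 (0.30).

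Of the 23 pathway genes named by rule, 6 kept their call under each of the 12 alternatives: Irak3, Traf5, Map3k7, Tnip2, Cxcl2 and Ccl3. The other 17 lost it when no filter was applied, 10 of them also when 1 array was left out, and 9 with no intensity trend: Ccl5, Cd40, Cd83, Cyld, Ikbkb, Il1b, Ltb, Tab2 and Traf3.

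Several measures of cell makeup and RNA moved with the pools, and their part in the differences above was not tested. The summed signal of 17 T cell markers was 11680.3 to 11840.6 on the DRlyp/lyp arrays and 2809.1 to 3044.7 on the DR+/+ arrays, and 14 of 16 tested were higher; the 1 called lower was Cd4, dim at 20.7 and 10.6 against 43.7 and 50.3 (log2 difference -1.66, adjusted p = 0.0114). The 9 B cell markers summed to 16360.9 to 17545.2 against 20829.4 to 22084.2, and 4 of 9 were lower. Macrophage and dendritic cell markers summed to 20589.3 to 20916.1 against 19697.2 to 20350.8, with 6 of 16 higher and 6 lower. The brightest of them, the lysozyme gene Lyz2, was higher (10794.5 and 10459.1 against 7377.4 and 7127.4), and without it the order of the sums turned round, to 10121.6 to 10130.2 against 12319.8 to 13223.4. Among the lower ones were the complement genes C1qa, C1qb and C1qc, with log2 differences of -1.10, -1.52 and -1.19. Itgam, Adgre1 and Csf1r were lower as well, with log2 differences of -0.84, -0.68 and -0.67. Besides Lyz2, the higher ones were Clec10a, Batf3, Mrc1, Itgax and Cd68, with log2 differences of 1.21, 1.01, 0.67, 0.62 and 0.50. Exocrine pancreas markers summed to 10940.6 to 11171.2 against 428.2 to 481.8, and all 13 tested were higher. Of the mast cell markers Cpa3, the mast cell carboxypeptidase, read 527.8 and 515.6 against 425.8 and 462.1, whereas Kit, the stem cell factor receptor, did not exceed 11.3 on any array; 3 of 10 tested were higher and 3 lower, and the 12 summed to 2952.3 to 3047.0 against 1955.9 to 2033.3. The protease gene Mcpt1 was higher (1664.8 and 1601.9 against 668.9 and 655.4), and the other 11 summed to 1350.4 to 1382.2 against 1300.5 to 1364.4, which overlap. Il1rl1 and Fcer1a were called higher as well. Il1rl1 read 119.9 and 113.8 against 10.3 and 12.1, at least 4.13-fold higher with the dim DR+/+ arrays set to 28.3. Fcer1a differed by 0.85 on the log2 scale. The tryptase genes went the other way, with Tpsab1 3.65-fold and Tpsb2 2.9-fold lower in the DRlyp/lyp pool. Hpgds was lower too, by 1.5-fold. These marker genes, and the sums without the brightest, were chosen after the values were seen. No marker was at 0 on all 4 arrays. The immediate-early genes, which stimulation and cell handling both induce, summed to 10320.2 to 10407.0 against 24401.8 to 24692.2, and 14 of 19 were lower and 1 higher. The 3′ to 5′ difference of the beta-actin control was larger on the DRlyp/lyp arrays by 1.44 on the log2 scale and that of GAPDH by 0.81. Where the probe sets of the NF-kB genes lie along their transcripts was not known here.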

How the data were processed

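The authors deposited linear array intensities, with 1 value for each probe set on each of 4 arrays. How these were summarised and scaled is not stated in the labels. Each array had a 2% trimmed mean of 150.1, and no further scaling was applied. Groups and replicate numbers came from the sample titles. Of 31099 probe sets, 57 controls were left out. Intensities were floored at the 25th percentile (6.8) and log2 transformed, and the 16068 probe sets above the median (28.3) on at least 2 arrays were tested genome-wide with limma 3.58.1 in R 4.3.3 (lmFit, eBayes with an intensity trend, 2 residual degrees of freedom, two-sided, Benjamini-Hochberg adjustment over all tested sets, threshold 0.05). Folds are on this floored scale. The number of arrays limits the precision. The test was checked on simulated data whose noise had the fit's moderated spread. An earlier run, with each set's raw spread as noise, recovered fewer changes and missed its recovery limit. Both the noise and the limit were then changed, so the check does not show how often real differences are found here.

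Symbols came from the platform's annotation, which gives 20826 probe sets 1 symbol, 436 several and 9780 none. A pathway or marker gene was represented by its tested set with the highest mean log2 signal. Members, gene lists and alternatives were chosen with earlier results of these data known. Alternatives are given in the closing section. Named were all members, and of each pathway list up to 3 called genes each way. A table of RefSeq promoters (GRCr8) gave the sequences. Plots used matplotlib 3.10.9 (Python 3.11.15).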

Additional observations from a re-analysis of the deposited data

How the results depend on the processing

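Over all probe sets 6302 were called. The count was 1671 with no filter, where 31042 sets were tested, 4057 with no intensity trend, and 3478 to 5800 without 1 array, lowest without DRlyp/lyp replicate 1. Members called lower numbered 4, but 1 (Nfkbiz) with no filter and with no intensity trend, and 2 to 3 without 1 array. The member called higher, Tnip1, was called under all 12 settings. Pathway genes called higher numbered 6, against 2 with median centring, 0 with no filter, 1 with no intensity trend and 1 to 7 without 1 array. Those called lower numbered 35, against 13 with no filter, 24 with no intensity trend and 25 to 32 without 1 array. With no filter 8 pathway genes were higher at an unadjusted p under 0.05 in limma's fit. Median centring moved the median log2 difference of all tested sets to -0.11 and the share of calls that were higher from 49.3% to 36.1%. Nfkb1 changed sign with quantile normalization (-0.002), median centring (-0.11), without DRlyp/lyp replicate 1 (-0.002) and without DR+/+ replicate 2 (-0.004), and Relb without DR+/+ replicate 2 (0.11), none past the threshold; without 1 array Nfkb1 ranged from -0.004 to 0.011 and Relb from -0.20 to 0.11. The labels do not say that replicate numbers pair the arrays, and same-numbered arrays' deviations correlated at 0.044. With the replicate block 7044 sets were called, and no member's call changed. Where the cause is not given, it was not tested. A single array left in a pool was assumed to vary like the other pool's.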
